A study of Mus musculus with 4 samples.

Results

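The heat shock proteins and chaperones of mouse regulatory T (Treg) cells were described here, with and without the lineage factor Foxp3. The members were all genes whose symbol begins with Hspa, Hspb, Hspd, Hspe, Hsph, Hsp90 or Dnaj, together with Cct2 to Cct8, Tcp1 and Hyou1. They came to 82 of 18193 genes and 203 of 34945 probe sets (sets of oligonucleotides that together read 1 transcript). Of these members 58 genes, read by 114 probe sets, had a mean log2 intensity of at least 4 and were tested. RNA was hybridised to 4 single-colour oligonucleotide arrays, 1 per sample. The first group was of CD4+ YFP+ Ly5.2+ T cells whose loxP-flanked Foxp3 gene could be excised by Cre (Foxp3-deleted cells, 2 arrays). The other was of CD4+ YFP+ Ly5.2+ T cells with a wild-type Foxp3 gene (wild-type cells, 2 arrays). All cells of both groups had been treated with the Cre construct HR-MMPCreGFP, had reported Cre exposure through YFP and were taken 6 weeks after adoptive transfer into host animals. The labels do not say whether replicates came from separate animals, so the p-values reflect array-to-array scatter alone, possibly of technical origin. Between 35.8% and 36.1% of probe sets reached a log2 intensity of 4 on each array.

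Heat shock proteins are molecular chaperones, which bind unfolded or newly made proteins and help them to reach or regain their folded state. Hsp70 proteins work in cycles of ATP hydrolysis that J proteins (the Dnaj genes) start and nucleotide exchange factors end, Hsp90 finishes the folding of kinases and steroid receptors, and the CCT ring folds actin and tubulin. Most of these genes are expressed in every cell, whereas Hspa1a and Hspa1b are switched on by heat and other protein-damaging stress through the factor Hsf1, which binds heat shock elements made of repeated GAA blocks in alternating orientation. In T cells, activation and growth raise the demand for chaperones, and Hsp90 clients include the kinase Lck.

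Hspa1a and Hspa1b encode near-identical inducible Hsp70 proteins, and their promoter windows are shown because these genes varied most among the chaperones across the arrays. Hsph1 and Hspe1 are shown beside them as stress-responsive genes whose windows hold more matches and whose signals varied less. Because Hsph1 and Hspe1 were picked partly by signal, the windows cannot show how matches relate to variation. Other members, not shown, varied more than these between the Foxp3-deleted arrays, by 1.59 for Dnaja1 and up to 1.64 for Dnajb1 (log2). Windows of Dnaja1 held at most 1 match and those of Dnajb1 held 0. Each RefSeq window (GRCm38.p6) runs from 250 bases before to 50 bases after the transcript start, 5′ to 3′ on the strand of the gene. They lie at chr17:34972107-34972406 (Hspa1a, minus strand), chr17:34959189-34959488 (Hspa1b, minus strand), chr5:149636287-149636586 (Hsph1, minus strand) and chr1:55087898-55088197 (Hspe1, plus strand). Capitals mark every match to GAANNTTC or TTCNNGAA, the pairings of GAA blocks in a heat shock element, where N is any base. Each of these motifs is its own reverse complement, so both strands were searched, and matches may overlap.
Hspa1a: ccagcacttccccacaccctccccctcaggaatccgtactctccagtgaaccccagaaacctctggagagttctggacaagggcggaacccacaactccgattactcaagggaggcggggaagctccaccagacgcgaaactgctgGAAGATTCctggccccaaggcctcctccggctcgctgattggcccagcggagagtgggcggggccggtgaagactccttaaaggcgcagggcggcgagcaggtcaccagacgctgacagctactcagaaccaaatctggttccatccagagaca
Hspa1b: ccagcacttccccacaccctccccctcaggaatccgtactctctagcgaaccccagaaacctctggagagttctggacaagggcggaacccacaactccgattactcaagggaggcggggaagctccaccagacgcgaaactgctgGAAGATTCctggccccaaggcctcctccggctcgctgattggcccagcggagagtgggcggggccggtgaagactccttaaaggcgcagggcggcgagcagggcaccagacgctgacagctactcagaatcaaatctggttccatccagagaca
Hsph1: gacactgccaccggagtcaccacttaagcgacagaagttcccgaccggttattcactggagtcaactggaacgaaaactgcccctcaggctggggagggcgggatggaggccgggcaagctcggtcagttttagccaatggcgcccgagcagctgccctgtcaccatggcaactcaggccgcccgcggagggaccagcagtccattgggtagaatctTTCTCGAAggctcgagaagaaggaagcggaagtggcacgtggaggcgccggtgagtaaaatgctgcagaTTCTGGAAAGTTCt
Hspe1: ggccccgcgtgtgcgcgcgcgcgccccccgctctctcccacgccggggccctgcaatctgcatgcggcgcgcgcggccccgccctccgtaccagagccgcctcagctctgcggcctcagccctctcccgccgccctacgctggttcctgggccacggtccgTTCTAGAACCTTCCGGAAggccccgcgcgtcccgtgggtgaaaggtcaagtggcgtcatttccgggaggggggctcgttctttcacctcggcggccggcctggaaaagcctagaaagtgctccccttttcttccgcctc
The Hspa1a and Hspa1b windows differed at 4 of 300 positions (C44T, T47C, T249G and C276T, with the Hspa1a base first and positions counted from 1 at the 5′ end) and each held 1 match, at positions 147 to 154. The Hsph1 and Hspe1 windows held 3 matches each, and those of Hspe1 overlapped in 1 run from position 162 to 179. Of 86 windows of member genes 21 held a match (24.4%), against 4946 of 32851 windows of all genes (15.1%). Some windows overlap, such as those of Hspd1 and Hspe1 and those of different Hsph1 or Dnajb6 transcripts, so the same match can count more than once. Windows were found for 67 of the 82 members. A match is a run of letters and not evidence of binding.

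The inducible Hsp70 genes differed far more between replicates than between the groups. Hspa1a read 9.89 and 4.87 in Foxp3-deleted cells against 7.66 and 5.98 in wild-type samples (log2 intensity). On the linear scale these were intensities of 949.8 and 29.3 in Foxp3-deleted cells and 202.4 and 63.2 in wild-type cells. The Foxp3-deleted replicates were thus the highest and the lowest of all arrays, 32.4-fold apart, and the wild-type arrays lay between them.

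Hspa1b followed the same course on its brightest probe set, with 12.69 and 8.92 in Foxp3-deleted cells against 10.32 and 9.91 in wild-type samples (log2 intensity). Its other probe sets above the filter read 9.69 and 5.21 in Foxp3-deleted cells against 5.15 and 6.48 in wild-type samples, and 8.34 and 3.39 in Foxp3-deleted cells against 3.96 and 4.92 in wild-type samples. Foxp3-deleted replicate 1 was the highest array on all 4 probe sets of the pair, and Foxp3-deleted replicate 2 was the lowest on 3 of them, with wild-type replicate 1 lowest on the other. The order of the wild-type arrays differed between probe sets. Because the transcripts are nearly the same, signal of one gene may be read by probe sets of the other.

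The mean difference between the groups was 0.56 for Hspa1a (SE 1.66, adjusted p = 0.954 in limma) and 0.69 for Hspa1b (SE 1.19, adjusted p = 0.909), given throughout as Foxp3-deleted minus wild-type on the log2 scale. Neither exceeded the spread between replicates, and SEs of this size leave a change of several fold in either direction undetectable. Without Foxp3-deleted replicate 1 the differences were -1.95 for Hspa1a and -1.19 for Hspa1b, and without Foxp3-deleted replicate 2 they were 3.07 and 2.57. Without wild-type replicate 1 that of Hspa1a was 1.40, and without wild-type replicate 2 it was -0.28. Among the 8629 genes tested Hspa1a had the largest pooled standard deviation within groups (2.65) and Hspa1b ranked 10 (1.89). Their gaps between the Foxp3-deleted arrays (5.02 and 3.76) ranked 1 and 3, and 1.41% of all tested genes had a gap of at least 2 there.

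**Figure D1:**
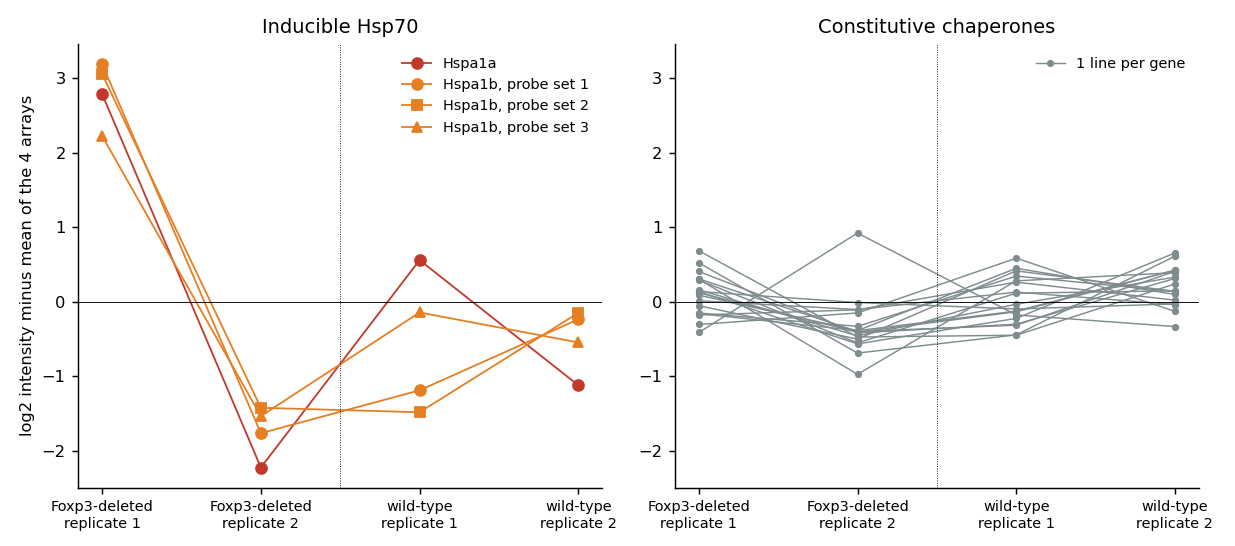
Log2 intensity minus the mean of the 4 arrays, by array, for the 4 probe sets of Hspa1a and Hspa1b above the filter (left) and for 18 constitutive chaperone genes (right, 1 line per gene). The lines join values of 1 probe set or gene. The inducible genes stood highest in Foxp3-deleted replicate 1 and low in Foxp3-deleted replicate 2. Each of the 18 constitutive genes, shown by its brightest probe set alone, moved by at most 1.34 between the arrays of either group. Dimmer probe sets above the filter, not shown, moved by 1.38 (Hspe1) and 1.37 (Hspa8) between the Foxp3-deleted arrays.

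Constitutive chaperones varied less. The 18 genes of this list are the Hsp70 genes Hspa4, Hspa5, Hspa8, Hspa9, Hspa13 and Hspa14, Hsp90b1, Hspd1, Hspe1, Hyou1 and the CCT ring. The list is not free of stress-responsive genes, since it holds Hspe1, shown above as such. It therefore does not set the inducible pair against unresponsive genes alone. On the brightest probe set of each gene, the median gap of the 18 genes was 0.57 between the Foxp3-deleted arrays and 0.36 between the wild-type arrays (log2). Their mean log2 intensity was 10.73 and 10.29 in Foxp3-deleted cells against 10.64 and 10.83 in wild-type samples. That of the inducible pair was 11.29 and 6.90 in Foxp3-deleted cells against 8.99 and 7.95 in wild-type samples. Per array, the inducible mean minus the constitutive mean was 0.56 and -3.39 in Foxp3-deleted cells and -1.65 and -2.89 in wild-type cells. The difference between the groups in this value was 0.85, smaller than its pooled standard deviation within groups of 2.07, and its sign turned without Foxp3-deleted replicate 1 (-1.12). Of the 18 constitutive genes 15 had a lower mean in Foxp3-deleted cells (median -0.29, range -0.67 to 0.51), against 51.9% of all tested genes with a lower mean. This count was 11 of 18 without Foxp3-deleted replicate 2, without wild-type replicate 2 or with the mean over probe sets, and 16 of 18 without Foxp3-deleted replicate 1 or wild-type replicate 1.

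**Figure D2:**
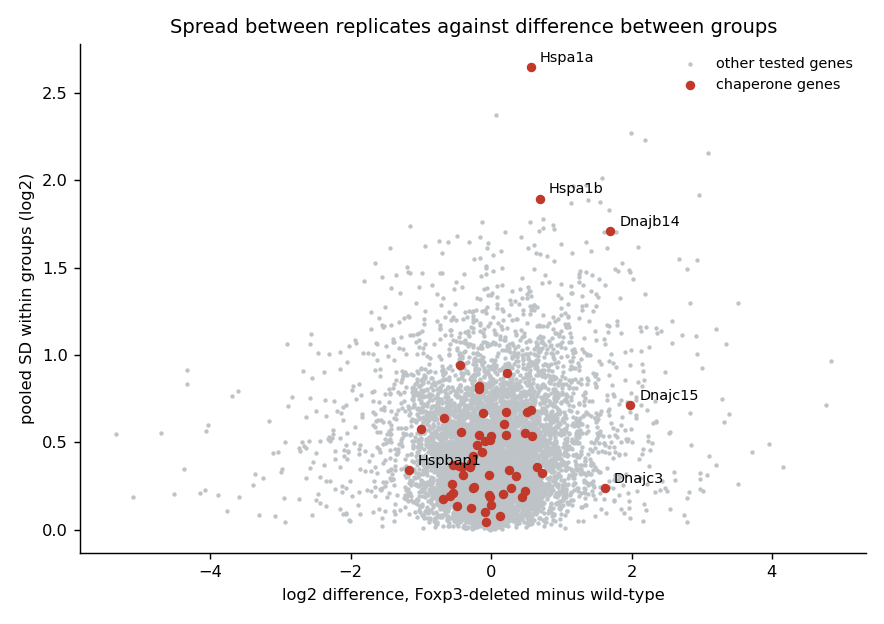
Pooled standard deviation within groups (log2, vertical axis) against the log2 difference, Foxp3-deleted minus wild-type (horizontal axis), for each of the 8629 tested genes. Chaperone genes are red and other genes grey. Hspa1a lies at the top of the plot (2.65) near the middle of the horizontal axis (0.56). Dnajc15 lies furthest right among the chaperone genes (1.98) and Dnajc3 (1.62) has a spread of 0.24.

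Markers of other cells and immediate early genes were read on the same arrays. Fos and Jun, subunits of the early-response factor AP-1, had the array order of Hspa1a. Fos read 12.06 and 9.20 in Foxp3-deleted cells against 11.19 and 10.22 in wild-type samples, and Jun 9.02 and 7.09 in Foxp3-deleted cells against 8.56 and 7.95 in wild-type samples (log2). They were picked out after their values were seen. The same order was found in 2 of 15 tested immediate early genes, in 4 of 58 chaperone genes (Hspa1a, Hspa1b, Dnajc7 and Dnajc17) and in 3.16% of all tested genes. The immediate early genes Egr1 (8.72 and 9.31 in Foxp3-deleted cells, 8.84 and 9.13 in wild-type cells) and Jund did not have it.

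The summed intensity of 5 myeloid markers was 1783 and 598.2 in Foxp3-deleted cells against 617.9 and 496.5 in wild-type samples. It was carried by Csf1r and Lyz2. Lyz2 read 9.69 and 6.30 in Foxp3-deleted cells against 5.65 and 7.24 in wild-type samples (log2). Csf1r read 9.85 and 8.93 in Foxp3-deleted cells against 9.06 and 8.30 in wild-type samples. Adgre1 was dim and read 4.33 and 4.44 in Foxp3-deleted cells against 4.36 and 4.32 in wild-type samples, without the array order of Hspa1a. Itgam and Cd14 were near the floor of the arrays (mean log2 intensity below 4). The 23 tested cell division genes had a median of -1.60 for Foxp3-deleted replicate 1 minus replicate 2, so that most were lower where Hspa1a was highest. The part of these genes and cells in the Hspa1a and Hspa1b signal was not tested. In bulk RNA, more cells of a type and more RNA per cell cannot be told apart.

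Across the whole set, no chaperone gene passed an adjusted p of 0.05, and none of the 8629 genes tested did (0%). The smallest adjusted p among members was 0.234 (limma). At an unadjusted p under 0.05 there were 3 of 58 members, namely Dnajc3, Dnajc15 and Hspbap1, against a background of 9.95% of all genes tested. Dnajc3 and Dnajc15 were higher (background 5.21%) and Hspbap1 was lower (background 4.74%). In 19 of 58 members (32.8%) the groups did not overlap, 7 with a higher and 12 with a lower value in Foxp3-deleted cells, against 39.7% of all tested genes (17.7% higher and 22% lower). With a difference of at least 1 and no overlap there were again Dnajc3, Dnajc15 and Hspbap1, against 10.5% of all tested genes (5.57% higher and 4.93% lower). Each of these shares was below the background.

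The median difference over the 58 members was -0.08, with 35 lower and 23 higher in Foxp3-deleted cells, and over all tested genes it was -0.02, with 48.1% higher. It moved with single arrays. Without Foxp3-deleted replicate 1, 42 of 58 members were lower (median -0.36), and without Foxp3-deleted replicate 2, 25 were lower (median 0.15). Without wild-type replicate 2, 29 were lower and 29 higher, and with the mean over the probe sets of each gene 28 were lower and 30 higher (median 0.01). Of the 31 members with several probe sets above the filter, 16 had probe sets of opposite sign. These were Cct2, Cct4, Dnaja4, Dnajb1, Dnajc1, Dnajc2, Dnajc3, Dnajc14, Dnajc17, Hsp90b1, Hspa4, Hspa4l, Hspa8, Hspa9, Hspa13 and Hspe1.

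Control probe sets gave a measure of 3′ bias that differed between the groups. For Actb the signal of the 3′ probe set over that of the 5′ probe set was 4.91 and 4.47 in Foxp3-deleted cells against 7.26 and 6.60 in wild-type samples (log2). For Gapdh it was 5.89 and 4.17 in Foxp3-deleted cells against 7.24 and 7.08 in wild-type samples. The 5′ ends were thus read relatively more strongly in both Foxp3-deleted arrays. The part of this bias in the differences between groups given above and below, or in the gaps between replicates, was not tested. Foxp3 itself read 8.77 and 8.75 in Foxp3-deleted cells against 11.40 and 11.23 in wild-type samples (log2), a difference of -2.55 (SE 0.28, adjusted p = 0.0749) in the direction that the labels give. All 6 T cell markers measured (Cd3d, Cd3e, Cd3g, Cd4, Ptprc and Thy1) were above the filter on average. Of these 5 had a higher mean in Foxp3-deleted cells (background 48.1%), 3 of them without overlap of the groups (background 17.7%). The largest difference was that of Cd4, which read 9.03 and 9.63 in Foxp3-deleted cells against 8.38 and 7.15 in wild-type samples (1.56, SE 0.52, adjusted p = 0.411 in limma). Ptprc differed by -0.04. The markers of CD8 T cells, dendritic cells and NK cells were near the floor in the mean, as were 3 of 4 B cell markers, the exception being Cd79b (4.04 and 4.94 in Foxp3-deleted cells, 6.58 and 6.49 in wild-type cells).

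**Figure D3:**
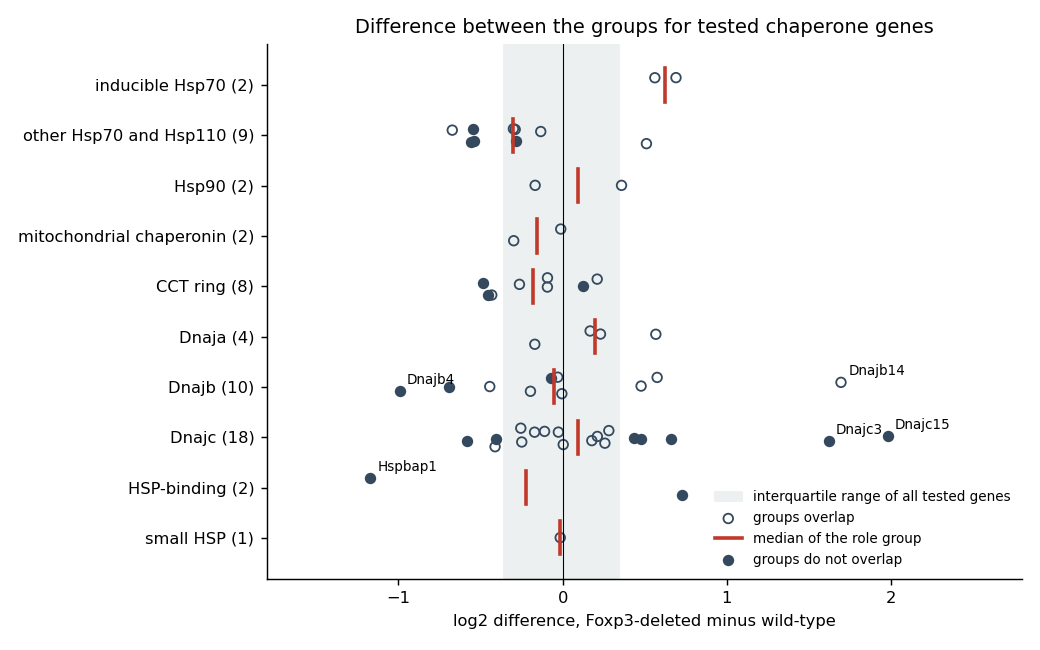
Log2 difference, Foxp3-deleted minus wild-type, for each of the 58 tested chaperone genes by role, with the number of genes in brackets. Filled points mark genes whose groups do not overlap, red bars the median of each role and the grey band the interquartile range of all tested genes. Of the 58 genes 40 lie within 0.5 of 0, with Dnajc15, Dnajb14 and Dnajc3 to the right and Hspbap1 to the left.

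Among the other Hsp70 and Hsp110 genes 9 of 13 were tested, and 8 of these had a lower mean in Foxp3-deleted cells (median -0.30). Hspa8, the constitutive cytosolic Hsp70 (Hsc70), read 14.11 and 14.18 in Foxp3-deleted cells against 14.55 and 14.31 in wild-type samples (difference -0.29, SE 0.15, adjusted p = 0.655), while 2 of its other probe sets read the other way (up to 0.94). Hspa9, the mitochondrial Hsp70 mortalin, read 9.89 and 9.66 in Foxp3-deleted cells against 10.50 and 10.14 in wild-type samples (difference -0.55, SE 0.30, adjusted p = 0.671), whereas a second readable probe set of Hspa9 gave 0.10. The values of both genes were lower in both Foxp3-deleted arrays, by less than 2-fold.

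Hspa14, a ribosome-associated Hsp70, read 7.95 and 7.502 in Foxp3-deleted cells against 8.42 and 8.14 in wild-type samples (difference -0.56, SE 0.36, adjusted p = 0.711). Hsph1, the Hsp110 that exchanges nucleotide on Hsp70, read 10.02 and 9.63 in Foxp3-deleted cells against 10.68 and 10.05 in wild-type samples (difference -0.54, SE 0.35, adjusted p = 0.711). For Hsph1 the groups nearly touched, at 10.02 and 10.05, and without wild-type replicate 1 the difference was -0.22. Hspa13, a microsomal Hsp70, read 7.52 and 6.24 in Foxp3-deleted cells against 7.499 and 7.61 in wild-type samples (difference -0.67, SE 0.52, adjusted p = 0.756). Its groups overlapped, and the difference was -0.03 without Foxp3-deleted replicate 2 and 0.05 with the mean over its probe sets.

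The Hsp70 of the endoplasmic reticulum (ER), Hspa5 (BiP), read 12.63 and 12.10 in Foxp3-deleted cells against 12.38 and 12.93 in wild-type samples (difference -0.29, SE 0.30, adjusted p = 0.817). Its large partner Hyou1 read 5.30 and 6.64 in Foxp3-deleted cells against 5.54 and 5.38 in wild-type samples (difference 0.51, SE 0.52, adjusted p = 0.816), and was the only tested member of this role with a higher mean. Here the height rested on Foxp3-deleted replicate 2. Hspa4 and Hspa4l, further Hsp110 genes, differed by -0.30 and -0.13 with overlapping groups. Hsph1, though heat-inducible, differed by 0.39 between the Foxp3-deleted arrays, where Hspa1a differed by 5.02. Other stress-responsive members differed more there on some probe sets. On those above the filter the gap was 0.61 and 1.64 for Dnajb1 and from 0.17 to 0.98 for Hsp90aa1, each higher in Foxp3-deleted replicate 1.

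Both Hsp90 genes measured, Hsp90aa1 and Hsp90b1, had overlapping groups. No member probe set carried the symbol Hsp90ab1. Hsp90aa1, the stress-responsive cytosolic Hsp90, read 12.27 and 11.68 in Foxp3-deleted cells against 11.52 and 11.71 in wild-type samples (difference 0.36, SE 0.28, adjusted p = 0.763), or 0.06 without Foxp3-deleted replicate 1. Hsp90b1 (Grp94), which folds integrins and Toll-like receptors in the ER, read 12.51 and 11.30 in Foxp3-deleted cells against 11.54 and 12.60 in wild-type samples (difference -0.17, SE 0.53, adjusted p = 0.957). In each group 1 array of Hsp90b1 was high and the other low.

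The mitochondrial chaperonin genes Hspd1 (Hsp60) and Hspe1 (Hsp10), which share a promoter region between them, had overlapping groups. Hspd1 read 10.88 and 10.26 in Foxp3-deleted cells against 10.68 and 11.05 in wild-type samples (difference -0.30, SE 0.33, adjusted p = 0.832). Hspe1 read 10.26 and 9.44 in Foxp3-deleted cells against 9.56 and 10.17 in wild-type samples (difference -0.01, SE 0.42, adjusted p = 0.999). The sign of both depended on single arrays. Hspe1 differed by 0.83 between the Foxp3-deleted arrays on its brightest probe set, against 5.02 for Hspa1a and 3.76 for Hspa1b. The dimmer probe set of Hspe1 read 5.67 and 4.29 in Foxp3-deleted cells, a gap of 1.38, against 4.03 and 4.87 in wild-type samples. On the brightest probe set of each tested member, the largest gaps between these arrays next to the inducible pair were those of Dnajb9 (1.80) and Dnaja1 (1.59). Dimmer probe sets above the filter had gaps of 2.08 for Dnajc21, 1.73 for Dnaja2 and 1.64 for Dnajb1. All of these were also higher in Foxp3-deleted replicate 1.

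Of the 9 genes of the CCT ring 8 were tested, 6 of them with a lower mean in Foxp3-deleted cells (median -0.18). Cct7 read 11.997 and 11.82 in Foxp3-deleted cells against 12.49 and 12.29 in wild-type samples (difference -0.48, SE 0.21, adjusted p = 0.564), and its other probe set differed by -0.62. Cct3 read 11.41 and 11.57 in Foxp3-deleted cells against 12.30 and 11.59 in wild-type samples (difference -0.46, SE 0.31, adjusted p = 0.721), or -0.10 without wild-type replicate 1. All 4 Cct3 probe sets above the filter were lower in the mean, from -0.64 to -0.33. These subunits were below wild type in both Foxp3-deleted arrays.

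Other subunits of the same ring did not follow. Cct6a (difference -0.43) and Tcp1 (-0.26) had overlapping groups, as had Cct5 (-0.09), Cct2 (-0.09) and Cct8 (0.21). Cct4 read 12.32 and 12.18 in Foxp3-deleted cells against 12.09 and 12.16 in wild-type samples (difference 0.13, SE 0.20, adjusted p = 0.895). Without Foxp3-deleted replicate 2 the median over the ring was 0.06.

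The J proteins included the members with the largest differences. Dnajc15, a J protein of the mitochondrial inner membrane known to restrain respiratory complex I, read 10.51 and 9.21 in Foxp3-deleted cells against 7.59 and 8.18 in wild-type samples. That is a difference of 1.98 (SE 0.54, 3.95-fold, adjusted p = 0.336), and 2.31% of all tested genes had a larger one in either direction. Both Foxp3-deleted arrays were higher, and leaving out 1 array at a time gave 1.33 to 2.63. Dnajc15 has 1 probe set, so no other reading of it could be compared.

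Dnajc3 (p58IPK), an ER J protein and inhibitor of the stress kinase PERK, read 9.66 and 9.27 in Foxp3-deleted cells against 7.70 and 7.98 in wild-type samples. The difference was 1.62 (SE 0.35, 3.07-fold, adjusted p = 0.234). Its remaining readable probe sets gave 0.50 and -0.02 with overlapping groups, and with the mean over its probe sets the difference was 0.70. The higher value of Dnajc3 thus rested on 1 of 3 probe sets.

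Dnajc5 (cysteine string protein), a J protein of secretory vesicles, read 10.95 and 10.79 in Foxp3-deleted cells against 10.18 and 10.60 in wild-type samples (difference 0.48, SE 0.29, adjusted p = 0.693). Its 4 probe sets above the filter were all higher in the mean, by 0.45 to 1.23, and on 3 of them the groups did not overlap, against 39.9% of all probe sets tested. Dnajc14 (difference 0.66, SE 0.38, adjusted p = 0.682) and Dnajc30 (0.43, SE 0.35, adjusted p = 0.764) also had higher values in both Foxp3-deleted arrays, though 1 probe set of Dnajc14 read -0.38. Dnajc10 (ERdj5), which reduces disulphide bonds in the ER, was lower in both (difference -0.58, SE 0.34, adjusted p = 0.682), as was Dnajc11 (-0.41, adjusted p = 0.790), which differed by -0.10 without wild-type replicate 2. The remaining readable probe sets of Dnajc10 gave -0.14 and -0.0061 with overlapping groups, and their mean with the brightest -0.24. Over all 18 tested Dnajc genes, of 27 measured, 10 were higher and 8 lower in the mean (median 0.09).

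**Figure D4:**
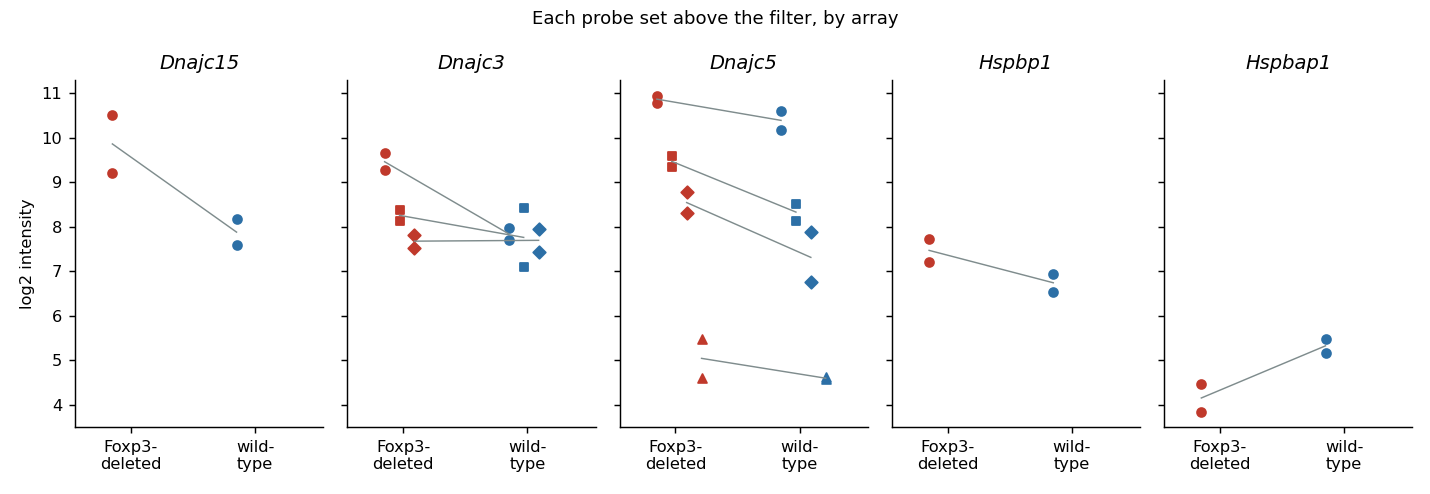
Log2 intensity by array for Dnajc15, Dnajc3, Dnajc5, Hspbp1 and Hspbap1 in Foxp3-deleted (red) and wild-type (blue) cells. Each marker shape is 1 probe set above the filter and grey lines join the group means. Dnajc15 and the brightest probe set of Dnajc3 are higher in both Foxp3-deleted arrays by 1.98 and 1.62 in the mean, whereas the other Dnajc3 probe sets overlap.

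Of 13 Dnajb genes 10 were tested, 7 of them lower in the mean (median -0.05). Dnajb11 (ERdj3), a partner of BiP, read 8.39 and 8.09 in Foxp3-deleted cells against 9.03 and 8.84 in wild-type samples (difference -0.69, SE 0.33, adjusted p = 0.621). Dnajb4, a cytosolic J protein, read 5.36 and 4.22 in Foxp3-deleted cells against 5.67 and 5.89 in wild-type samples (difference -0.99, SE 0.47, adjusted p = 0.614), or -0.42 without Foxp3-deleted replicate 2. Dnajb1, the heat-inducible Hsp40 that works with Hspa1a, read 11.08 and 10.47 in Foxp3-deleted cells against 11.35 and 10.59 in wild-type samples (difference -0.20, SE 0.39, adjusted p = 0.922). Its other probe set read 8.76 and 7.12 in Foxp3-deleted cells against 7.16 and 7.29 in wild-type samples, high in the same array as Hspa1a.

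Dnajb14, of the ER membrane, had a mean difference of 1.695 (SE 1.097, adjusted p = 0.711). It read 6.32 and 6.75 in Foxp3-deleted cells against 3.15 and 6.53 in wild-type samples, so the difference came from wild-type replicate 1 and without that array was 0.0016. Dnajb6, which keeps aggregation-prone proteins soluble, differed by 0.58 (SE 0.44, adjusted p = 0.752) with overlapping groups. Dnajb9 (ERdj4), a target of the unfolded protein response, read 9.02 and 7.23 in Foxp3-deleted cells against 8.28 and 8.86 in wild-type samples, and differed by -0.44 (SE 0.66). All 4 Dnaja genes had overlapping groups. Dnaja4 differed by 0.57, Dnaja2 by 0.23, Dnaja1 by -0.17 and Dnaja3, a mitochondrial J protein, by 0.17.

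Hspbp1 and Hspbap1 carry the letters of the small heat shock proteins and are not members of that family. Hspbp1, a nucleotide exchange factor of Hsp70, read 7.73 and 7.22 in Foxp3-deleted cells against 6.94 and 6.55 in wild-type samples (difference 0.73, SE 0.39, adjusted p = 0.659). Hspbap1, named for its binding to Hspb1, read 4.46 and 3.85 in Foxp3-deleted cells against 5.48 and 5.18 in wild-type samples (difference -1.17, SE 0.37, adjusted p = 0.394). Both were separated between the groups, in opposite directions, and Hspbap1 lay close to the floor. The value of Hspbap1 rested on its only probe set above the filter. Its next brightest probe set, just below the filter (mean 3.89), differed by 0.11 with overlapping groups, and the remaining ones, near the floor, by -0.22 and -0.09.

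Of the small heat shock proteins, Hspb1, Hspb2, Hspb3, Hspb6, Hspb7, Hspb8 and Hspb9 were below the filter in the mean and not tested. Hspb6 read 2.91 and 4.56 in Foxp3-deleted cells against 2.95 and 3.15 in wild-type samples, so that Foxp3-deleted replicate 2 alone was above 4. Hspb11, an intraflagellar transport protein despite its symbol, read 7.97 and 7.82 in Foxp3-deleted cells against 7.73 and 8.08 in wild-type samples (difference -0.01, SE 0.35). In all 24 members were not tested, 17 of them below a log2 intensity of 3 on every array. Of the others, Dnajc12 read 3.39 and 3.24 in Foxp3-deleted cells against 4.27 and 4.17 in wild-type samples. Hspa2, a testis-enriched Hsp70, read 3.17 and 3.61 in Foxp3-deleted cells against 4.22 and 3.73 in wild-type samples. At these levels the size of a difference depends on the floor.

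Most chaperone genes differed in the same direction between the Foxp3-deleted replicates. Foxp3-deleted replicate 1 was above replicate 2 in 47 of 58 members, against 55.3% of all tested genes, with a median gap of 0.45 against 0.05 over all tested genes. Wild-type replicate 2 was above replicate 1 in 37 of 58 members, against 4197 of all 8629 genes tested. Both held in 30 of 58, against 33.2% of all tested genes, among them Hsp90aa1, Hsp90b1, Hspd1, Hspe1 and the 4 Dnaja genes but neither Hspa1a nor Hspa1b.

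**Figure D5:**
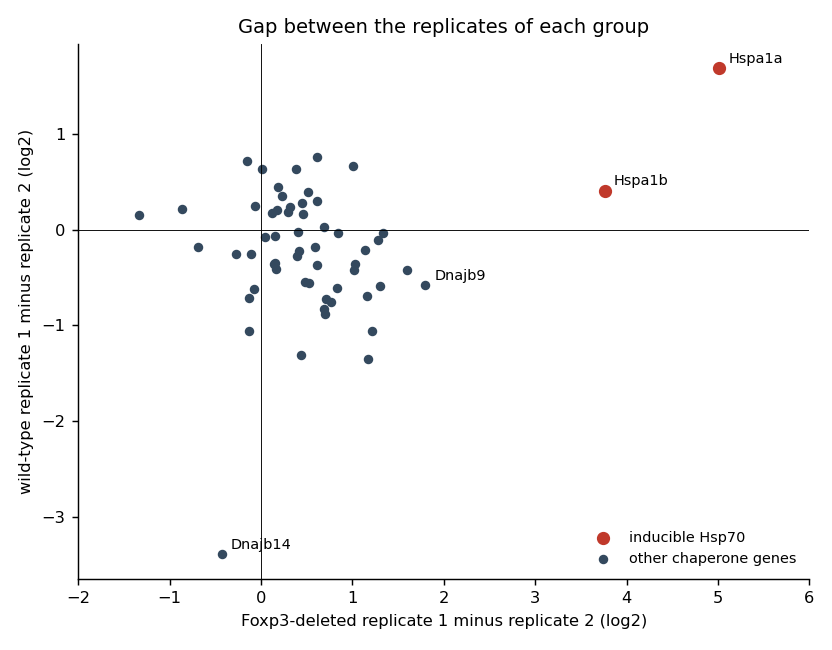
Gap between the wild-type replicates (log2, vertical axis) against the gap between the Foxp3-deleted replicates (log2, horizontal axis) for the 58 tested chaperone genes. Red points are Hspa1a and Hspa1b. They stand apart at 5.02 and 3.76 on the horizontal axis, and 47 of the 58 genes lie right of 0.

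Partners of the chaperones outside the set did not pass the test either. Of the heat shock factors and their regulators, Hsf2, Hsf4 and Hsf5 were near the floor, and Hsbp1, which binds Hsf1, differed by -0.13 (SE 0.44, adjusted p = 0.958). Hsf1 itself was not among the 4 measured genes of that list. Among 12 tested Hsp70 co-chaperones 4 had a higher and 8 a lower mean, with the ubiquitin ligase Stub1 (CHIP) at -0.61, the mitochondrial exchange factor Grpel1 at -0.53 and Grpel2 at -0.38. Among 12 tested Hsp90 co-chaperones 5 were higher and 7 lower, with Sugt1 at 1.35 (SE 0.96, with overlap), Tsc1, better known as a brake on mTOR, at 1.20 (SE 0.41, adjusted p = 0.429) and the immunophilin Fkbp4 at -0.94 (SE 0.37). None of these genes passed 0.05.

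Prefoldins, which hand actin and tubulin to the CCT ring, had a higher mean in 6 of 8 cases (median 0.32), led by Pfdn1 at 1.25 (SE 0.48, adjusted p = 0.483), Vbp1 at 0.51 and Uri1 at 0.42. Of 7 tested mitochondrial folding genes 5 were lower, with the protease Lonp1 at -0.82 (SE 0.35, adjusted p = 0.551), the Hsp90 relative Trap1 at -0.56 and, higher but dim, Clpb at 1.14. Of 22 genes of ER folding and the unfolded protein response 12 were higher and 10 lower (median 0.12), with the oxidoreductase Pdia3 at 1.68 (SE 0.67), Ero1a at 0.83 and the sensor kinase Ern1 (IRE1) at 0.80. Xbp1, the factor that IRE1 activates, read 10.57 and 10.39 in Foxp3-deleted cells against 11.002 and 10.85 in wild-type samples (difference -0.45, adjusted p = 0.682). In the immediate early list Btg2, also an antiproliferative gene, stood at 2.98 (SE 0.35, adjusted p = 0.0749), Dusp1 at -1.20 and Nr4a1 at -1.02, and in the cell division list Birc5 at 1.30, Cdc6 at -1.07 and Plk1 at -0.74. Btg2 passed 0.05 with the filter at a mean of 6 (adjusted p = 0.0395) and after quantile normalization (adjusted p = 0.0465), and its difference was 1.71 with the mean over probe sets. Several of these values moved with single arrays. With 1 array left out at a time, Pdia3 ranged from 0.82 to 2.54, Ero1a from 0.19 to 1.47, Ern1 from 0.31 to 1.29, Birc5 from 0.36 to 2.23, Cdc6 from -2.13 to -0.012, Sugt1 from 0.095 to 2.61 and Dusp1 from -2.09 to -0.32.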

How the data were processed

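RNA of 4 mouse T cell samples was measured on oligonucleotide arrays, 1 per sample, and groups were taken from the sample titles. The deposited values are linear intensities. The submitters' processing notes name GCRMA 1.1.3, a method that corrects background, normalizes arrays and summarises probes, and dim probe sets sit close to a common floor. No arrays held identical values. With so few arrays every value is imprecise.

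The log2 of each deposited intensity was taken, with no pseudocount. From the 45101 probe sets, the 34945 naming a single gene were kept, and 64 controls were left out. Each gene was represented by its probe set with the highest mean, and 8629 genes with a mean of at least 4 were fitted with limma 3.58.1 in R 4.3.3 (eBayes with trend). The two-sided p-values were adjusted by Benjamini-Hochberg across these genes, at a threshold of 0.05. Residual degrees of freedom were 2 and prior degrees of freedom 3.31. Standard errors are moderated. The procedure was tested on simulated data. Medians, counts and the inducible-minus-constitutive value have no test. Named were Hspa1a and Hspa1b, up to 4 members per role and up to 3 genes per partner list with the largest differences, and Foxp3. Egr1, Jund, Xbp1, Lyz2, Csf1r, Adgre1, Cd4, Ptprc and Cd79b, and members given beyond 4 per role, were added after their values were seen. Alternatives were other filters, a raised floor, the mean over probe sets, a prior without trend, quantile normalization, blocks and leaving out each array. The members and lists were chosen with earlier results of these data known. Cct8l1 and 3 probe sets shared by Dnajc19 and its pseudogene were outside the rule. Tables and plots were made with Python 3.11.15, pandas 2.3.3 and matplotlib 3.10.9.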

Additional observations from a re-analysis of the deposited data

Results flagged for a closer look

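The control probe set for the 5′ part of 18S ribosomal RNA, which belongs to no comparison of genes, had a mean log2 intensity of 12.90 in Foxp3-deleted cells and 11.15 in wild-type cells, a difference of 1.75. It read 12.35 and 13.44 in Foxp3-deleted cells against 11.09 and 11.20 in wild-type samples. Its relation to the chaperone values was not tested.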

How the results depend on the processing

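No chaperone gene passed 0.05 under any of the 13 alternatives, with smallest adjusted p between 0.111 and 0.707, and the inducible-minus-constitutive difference ranged from -1.12 to 2.83 when 1 array was left out. Genes called over all tested numbered 27 with a filter at a mean of 6, 30 with the mean over probe sets and 35 after quantile normalization, against 0 as reported, where 859 had an unadjusted p under 0.05 in limma, and 0 under the other settings, with 557 to 1233. The cause was not tested. Foxp3 was past the threshold under these 3 settings (adjusted p = 0.0352, 0.0479 and 0.0433), and Btg2 under the first and the last. With the replicate block 0 genes and 0 chaperone genes passed. The pairing was checked through deviations from group means, which correlated at -0.298 between same-numbered arrays over 8629 genes, and with crossed numbers as the block, chosen after seeing the data, 0 genes passed. With the filter at 6 the median of Hspbp1 and Hspbap1 was 0.73, since only Hspbp1 was left. Leaving out 1 array at a time gave -0.41 to 0.063 for the CCT median. It also turned the sign of Hspa1a (-1.95 to 3.07), Hspa1b (-1.19 to 2.57), Hsp90b1 (-0.77 to 0.44), Hspd1 (-0.61 to 0.011), Hspe1 (-0.42 to 0.40), Hspb11 (-0.19 to 0.16), Cct6a (-0.87 to 0.0082), Tcp1 (-0.68 to 0.16), Dnaja1 (-0.97 to 0.63), Dnaja2 (-0.45 to 0.91), Dnaja3 (-0.037 to 0.37), Dnaja4 (-0.084 to 1.22), Hsbp1 (-0.62 to 0.35), Vbp1 (-0.61 to 1.63) and Plk1 (-2.32 to 0.85). With the mean over probe sets the sign turned for Hspa8 (0.13), Hspa13 (0.050), Hspe1 (0.26), Cct2 (0.0086), Dnajb1 (0.26), Dnajc1 (0.34), Dnajc17 (0.30) and Hsbp1 (0.083). Leaving out 1 array also turned the sign of members not in the first of these lists. Among them were Dnajb9 (-1.34 to 0.46), Dnajb1 (-0.58 to 0.18), Hyou1 (-0.16 to 1.18), Cct5 (-0.45 to 0.27), Cct8 (-0.37 to 0.79) and Hspa4l (-0.56 to 0.30). In all, 30 of 58 members kept their sign whichever array was left out. The size of differences below a log2 intensity of 4 is limited by the floor.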

Other observations

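Dnajc19, a J protein of the mitochondrial import machinery, shares its probe sets with a pseudogene and was not tested. Its brightest probe set read 9.004 and 7.87 in Foxp3-deleted cells against 7.14 and 8.66 in wild-type samples (log2 intensity). A further one read 7.21 and 6.72 in Foxp3-deleted cells against 8.001 and 7.81 in wild-type samples, the opposite way in the mean (-0.94 against 0.54).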
